A study of Mus musculus with 30 samples.

Results

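The muscle enzymes of glycolysis were described as 10 genes, taken from the deposited expression table by their symbols: GPI1, PFKM, ALDOA, TPI1, GAPDH, PGK1, PGAM2, ENO3, PKM and LDHA. All 10 were found among the 21073 genes of the table, and all 10 passed the filter on low values in every comparison. Gene expression was measured by RNA-Seq of poly(A) RNA from the extensor digitorum longus (EDL), a fast muscle of the lower leg, in 30 female SJL/J mice. On day 14 and on day 40 there were 5 unimmunized mice (Ctrl), 5 mice immunized with ovalbumin in complete Freund's adjuvant (OVA) and 5 mice with experimental autoimmune encephalomyelitis (EAE), induced with the proteolipid protein peptide [Ser140]-PLP139-151 in the same adjuvant and without pertussis toxin. In the study's account, day 14 is the peak of the disease and day 40 a phase of chronic remission, and the OVA mice carry the adjuvant response without the myelin antigen. Each mouse was sampled once, so the days were compared between different mice. Whole muscles were used, and fewer cells of a type and less RNA per cell cannot be told apart in such samples.

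Glycolysis breaks glucose down to pyruvate in the cytosol and yields ATP without oxygen. Fast fibres depend on it for short bursts of force, and lactate dehydrogenase keeps the pathway running by regenerating the NAD+ that glyceraldehyde-3-phosphate dehydrogenase uses. Several steps are carried by an isozyme that predominates in muscle (PFKM, ALDOA, PGAM2, ENO3, LDHA), while related isozymes serve the liver, brain, heart and other tissues.

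Levels are given as RPKM, the reads on a gene scaled to its exon length and to the mapped reads of the library, which allows levels to be set beside each other between genes. Differences are log2 fold changes of RPKM + 0.1 from limma, with 95% intervals. A gene was called where its Benjamini-Hochberg adjusted p over all genes tested was below 0.05 and its fold change above 1.5. The libraries held 18.1 M to 24.7 M reads, as estimated from the steps between low values, and the fast fibre markers MYH4, ACTN3 and PVALB were among the 12 of 12 such markers that exceeded 1 RPKM in each group. On day 14, 1036 genes were called lower and 1282 higher in EAE than in Ctrl (1286 and 938 with median-of-ratios scaling, 721 and 2019 with values rescaled to a fixed sum), and the median log2 fold change of all 8771 genes tested was 0.11 (0.01 and 0.27 under those scalings). The day 40 libraries held genes typical of the intestine, such as FABP1 at 2.61 to 5.70 RPKM and APOA1 at 3.55 to 8.64 RPKM, against at most 0.00 and 0.0557 RPKM on day 14. These genes were chosen after their values were seen, and they were present in all 3 groups of day 40. Whether the libraries of day 14 and day 40 were prepared together is not given in the sources used here. A part of library preparation therefore cannot be told apart from day.

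In unimmunized mice on day 14 the 10 genes spanned a wide range of levels. ALDOA, whose enzyme cleaves fructose-1,6-bisphosphate, was the highest at 9758 ± 1694 RPKM (SD, n = 5) and rank 11 of all genes in the table. It was followed by ENO3 at 4291 ± 332 and PGAM2 at 3687 ± 1090 RPKM, which overlapped each other, and by PFKM at 1994 ± 170 RPKM, which overlapped neither PGAM2 above it nor TPI1 below it. TPI1 (1479 ± 130), LDHA (1451 ± 244) and PKM (1440 ± 113 RPKM) could not be ordered beyond their spread. GPI1 stood at 229 ± 23.7 RPKM, and GAPDH (62.3 ± 25.4) and PGK1 (58.5 ± 11.3 RPKM) were the lowest and overlapped. The levels of GAPDH and PGK1 are uncertain: 88% of the GAPDH transcript and 68.8% of the PGK1 transcript matched other annotated genes at 95% identity or more over at least 150 bases (79 and 4 genes), and how the counting treated reads that fit several genes is not given in the sources used here. The same search found 65.5% of the PKM transcript in 2 other genes, 55% of LDHA in 4, 50.2% of GPI1 in 1 and 19.3% of TPI1 in 1. It found no copy of PFKM, ALDOA, PGAM2 or ENO3.

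The genes lie on 6 chromosomes of the GRCm38 (mm10) assembly, all annotated as protein-coding, and their RPKM was counted over exons. GPI1 (chr7:34201330-34230336), LDHA (chr7:46841475-46855627) and ALDOA (chr7:126795234-126800751) share chromosome 7, TPI1 (chr6:124810586-124814296) and GAPDH (chr6:125161715-125166467) lie close together on chromosome 6, and PGAM2 (chr11:5801640-5803733) and ENO3 (chr11:70657202-70662513) are on chromosome 11. PFKM (chr15:98092589-98132451), PKM (chr9:59656368-59679375) and PGK1 (chrX:106187100-106203699) are each alone. The 250 bases before a transcription start are shown for 3 of the genes called lower in EAE on day 14 (LDHA, ENO3, PGAM2) and for ALDOA, which was not called. They are RefSeq sequences of GRCm38.p6, written 5′ to 3′ on the gene's strand, with ACGTG and its reverse complement CACGT in capitals. ACGTG is a form of the core that hypoxia-inducible factors are known to recognise. E-box proteins such as MYC are known to recognise the longer CACGTG, which contains it.
LDHA, chr7:46845554-46845803, plus strand: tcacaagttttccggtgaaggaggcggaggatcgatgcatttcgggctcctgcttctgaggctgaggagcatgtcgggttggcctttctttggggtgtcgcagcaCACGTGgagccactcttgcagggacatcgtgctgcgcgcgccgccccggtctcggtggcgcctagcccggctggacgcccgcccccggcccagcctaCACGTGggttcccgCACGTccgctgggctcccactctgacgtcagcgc
ENO3, chr11:70656926-70657175, plus strand: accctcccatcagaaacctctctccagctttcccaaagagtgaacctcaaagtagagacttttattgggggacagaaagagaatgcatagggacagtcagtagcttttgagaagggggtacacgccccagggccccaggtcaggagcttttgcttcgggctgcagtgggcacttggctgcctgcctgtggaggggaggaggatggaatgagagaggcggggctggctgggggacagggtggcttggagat
PGAM2, chr11:5803797-5804046, minus strand: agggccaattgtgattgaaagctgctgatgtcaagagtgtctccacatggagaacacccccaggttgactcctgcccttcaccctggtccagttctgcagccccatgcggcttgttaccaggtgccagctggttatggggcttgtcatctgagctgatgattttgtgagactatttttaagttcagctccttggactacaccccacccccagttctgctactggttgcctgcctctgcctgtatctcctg
ALDOA, chr7:126799255-126799504, minus strand: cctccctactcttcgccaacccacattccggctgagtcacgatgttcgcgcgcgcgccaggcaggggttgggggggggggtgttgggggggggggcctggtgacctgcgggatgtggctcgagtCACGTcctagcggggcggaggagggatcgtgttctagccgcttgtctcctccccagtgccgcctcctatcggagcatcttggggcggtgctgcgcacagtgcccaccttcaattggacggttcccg
The LDHA sequence held 3 runs of these letters, 2 of them the palindrome CACGTG, and ALDOA held 1, while ENO3 and PGAM2 held none. LDHA has 2 start windows and ALDOA 3 in this table, and the window with most matches is shown, or the most upstream where they were equal. Over the full windows, from 250 bases before to 50 after the start and on both strands, ACGTG was found in 8 of the 17 windows of the 10 genes (6 genes: PFKM, ALDOA, GAPDH, PGK1, PKM and LDHA) and in 19.6% of all 32851 windows. Windows of a gene can overlap and are not independent: in ALDOA the same CACGT was counted in 2 windows. TATAAA was found in none of the 17 windows and in 13.6% of all windows, CCAAT in 6 of 17 and 37.4%, and GGGCGG in 7 of 17 and 35.7%. CANNTG, which overlaps CACGTG, was found in 14 of 17 and in 72.3%. A match is a description of the letters, and binding was not measured.

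The comparison of EAE with unimmunized mice on day 14 asks how the enzymes stood at the peak of the disease. Of the 10 genes, 8 were called lower and 0 higher, against 11.8% of all genes tested called lower. The median log2 fold change of the 10 was -1.08, and -1.18 with median-of-ratios scaling. In 9 of the 10, every EAE mouse was below every unimmunized mouse, which held for 11.0% of all genes tested. The exception was ALDOA. Against OVA mice, 8 of 10 were again called lower (9.28% of all genes tested), with a median of -0.89, and 7 of 10 did not overlap (8.20% of all genes). Both comparisons use the same EAE mice.

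**Figure D1:**
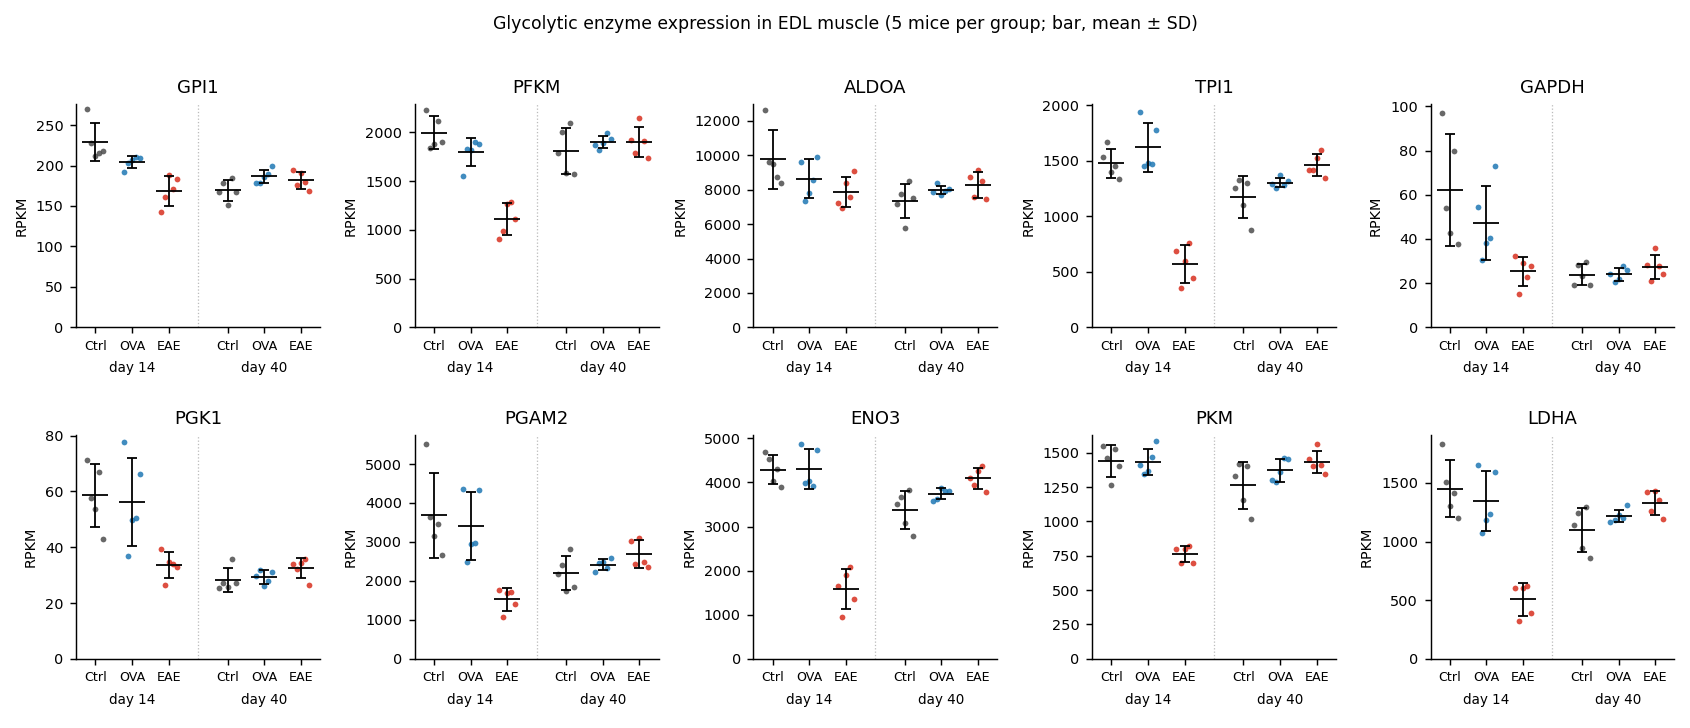
RPKM of each of the 10 enzymes in single mice (points) by group and day, with the mean and SD of 5 mice (bars), on linear axes from 0. On day 14 the EAE mice of LDHA, ENO3, TPI1, PKM, PGAM2, PFKM and GPI1 sit below all Ctrl and OVA mice, and on day 40 the groups overlap for 9 of the 10 genes between EAE and Ctrl.

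In the first, ATP-consuming stage of the pathway, the differences were unequal. GPI1, which interconverts glucose-6-phosphate and fructose-6-phosphate, stood at 270, 228, 212, 216 and 218 RPKM in the Ctrl mice and at 142, 161, 188, 171 and 183 RPKM in the EAE mice. The groups did not overlap, but the log2 fold change of -0.44 (interval -0.65 to -0.23, adjusted p = 0.00224 by limma) stayed within the fold limit, and GPI1 was not called. Against OVA mice (192 to 210 RPKM) it was -0.28 (adjusted p = 0.0363).

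PFKM, the muscle phosphofructokinase and the main point of control of the pathway, was at 2227, 1839, 1881, 2120 and 1900 RPKM in Ctrl mice. In OVA mice it was at 1547, 1831, 1818, 1904 and 1879 RPKM. In EAE mice it was at 909, 990, 1265, 1282 and 1115 RPKM, below every mouse of both other groups. PFKM fell by 0.85 on the log2 scale against Ctrl (interval -1.10 to -0.60, adjusted p = 5.63e-05 by limma) and by 0.70 against OVA (adjusted p = 0.000339). The call against OVA was lost with quantile normalization (-0.41) and with values rescaled to a fixed sum (-0.56).

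ALDOA was at 12646, 9580, 9487, 8719 and 8358 RPKM in Ctrl mice, at 9628, 7328, 7794, 8530 and 9904 RPKM in OVA mice and at 7248, 6955, 8407, 7591 and 9107 RPKM in EAE mice. The groups overlapped, and 1 Ctrl mouse stood above the rest. The log2 fold change was -0.30 against Ctrl (interval -0.61 to -0.00, adjusted p = 0.0899 by limma) and -0.13 against OVA (interval -0.44 to 0.17, adjusted p = 0.480), and its sign turned under quantile normalization (0.04 and 0.24). ALDOA thus took a larger part of the summed RPKM of the 10 enzymes in EAE mice, at 50.3% to 61.7% in single mice against 37.3% to 41.6% in Ctrl and 37.1% to 39.2% in OVA mice. It ranked 10 of all genes in the EAE group and 11 in the Ctrl group.

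TPI1 makes the products of aldolase interchangeable, so that the whole sugar can enter the later steps. Its levels were 1532, 1672, 1401, 1455 and 1334 RPKM in Ctrl mice. They were 1934, 1451, 1482, 1466 and 1775 RPKM in OVA mice, and 686, 353, 601, 764 and 441 RPKM in EAE mice. The highest EAE mouse stood well below the lowest of the other groups. TPI1 fell by 1.43 on the log2 scale against Ctrl (interval -1.81 to -1.05, adjusted p = 2.19e-05 by limma) and by 1.56 against OVA (adjusted p = 1.36e-05).

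In the later, ATP-yielding stage all 5 genes were called lower. GAPDH, which oxidises glyceraldehyde-3-phosphate, was at 97.1, 53.9, 42.7, 79.9 and 37.8 RPKM in Ctrl mice and at 32.2, 15.3, 29.0, 22.7 and 27.7 RPKM in EAE mice. These levels were low and spread widely among the Ctrl mice, and the groups were nonetheless apart. GAPDH fell by 1.24 on the log2 scale (interval -1.84 to -0.65, adjusted p = 0.00221 by limma). Against OVA mice (30.3 to 72.9 RPKM) the groups overlapped, with a log2 fold change of -0.87 (adjusted p = 0.0228) that was no longer called without OVA mouse 5 or without EAE mouse 2 (-0.70 in each case).

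PGK1, which makes the first ATP of this stage, was at 71.4, 57.7, 53.8, 66.9 and 42.8 RPKM in Ctrl and at 39.4, 26.5, 34.7, 34.0 and 33.0 RPKM in EAE mice. It fell by 0.79 on the log2 scale (interval -1.18 to -0.40, adjusted p = 0.00262 by limma). The OVA mice, at 37.0 to 77.5 RPKM, overlapped the EAE mice. That log2 fold change was -0.71 (adjusted p = 0.00662), and PGK1 was not called without OVA mouse 1 (-0.58) or with values rescaled to a fixed sum (-0.57).

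PGAM2, the muscle phosphoglycerate mutase, was at 5521, 3650, 3145, 3450 and 2668 RPKM in Ctrl mice. Its levels were 4349, 2482, 2935, 2965 and 4327 RPKM in OVA mice and 1777, 1066, 1697, 1717 and 1404 RPKM in EAE mice. The Ctrl and OVA mice ranged widely, and the EAE mice were below all of them. PGAM2 fell by 1.25 on the log2 scale against Ctrl (interval -1.70 to -0.80, adjusted p = 0.000271 by limma) and by 1.14 against OVA (adjusted p = 0.000650).

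ENO3, the muscle enolase, which forms phosphoenolpyruvate, was at 4685, 4541, 4033, 4303 and 3894 RPKM in Ctrl mice. In OVA mice it was at 4878, 3989, 4031, 3910 and 4725 RPKM, and in EAE mice at 1650, 942, 1903, 2076 and 1359 RPKM. Ctrl and OVA mice were nearly alike in level, and the highest EAE mouse lay far below them. The log2 fold change was -1.49 against Ctrl (interval -1.86 to -1.11, adjusted p = 1.39e-05 by limma) and -1.49 against OVA (adjusted p = 1.64e-05).

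PKM, which makes pyruvate and the last ATP of the pathway, was at 1547, 1458, 1265, 1527 and 1403 RPKM in Ctrl and at 800, 699, 802, 818 and 694 RPKM in EAE mice. The EAE mice lay close together. PKM fell by 0.92 on the log2 scale against Ctrl (interval -1.13 to -0.70, adjusted p = 6.18e-06 by limma) and by 0.91 against OVA mice (1347 to 1584 RPKM, adjusted p = 8.59e-06), the latter not called with quantile normalization (-0.56). Transcript forms of PKM are not resolved in the table.

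LDHA, the subunit of lactate dehydrogenase that prevails in fast muscle, was at 1832, 1511, 1299, 1415 and 1197 RPKM in Ctrl mice. In OVA mice it was at 1649, 1071, 1183, 1233 and 1593 RPKM, and in EAE mice at 608, 323, 606, 617 and 392 RPKM. Its log2 fold change of -1.55 against Ctrl was the largest of the 10 (interval -1.96 to -1.13, adjusted p = 2.19e-05 by limma), and its interval overlapped those of ENO3, TPI1, PGAM2, GAPDH and PGK1. Against OVA the log2 fold change was -1.43 (adjusted p = 4.91e-05). In EAE mice 2 and 5, which held the least LDHA, TPI1 and ENO3 were lowest too.

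**Figure D2:**
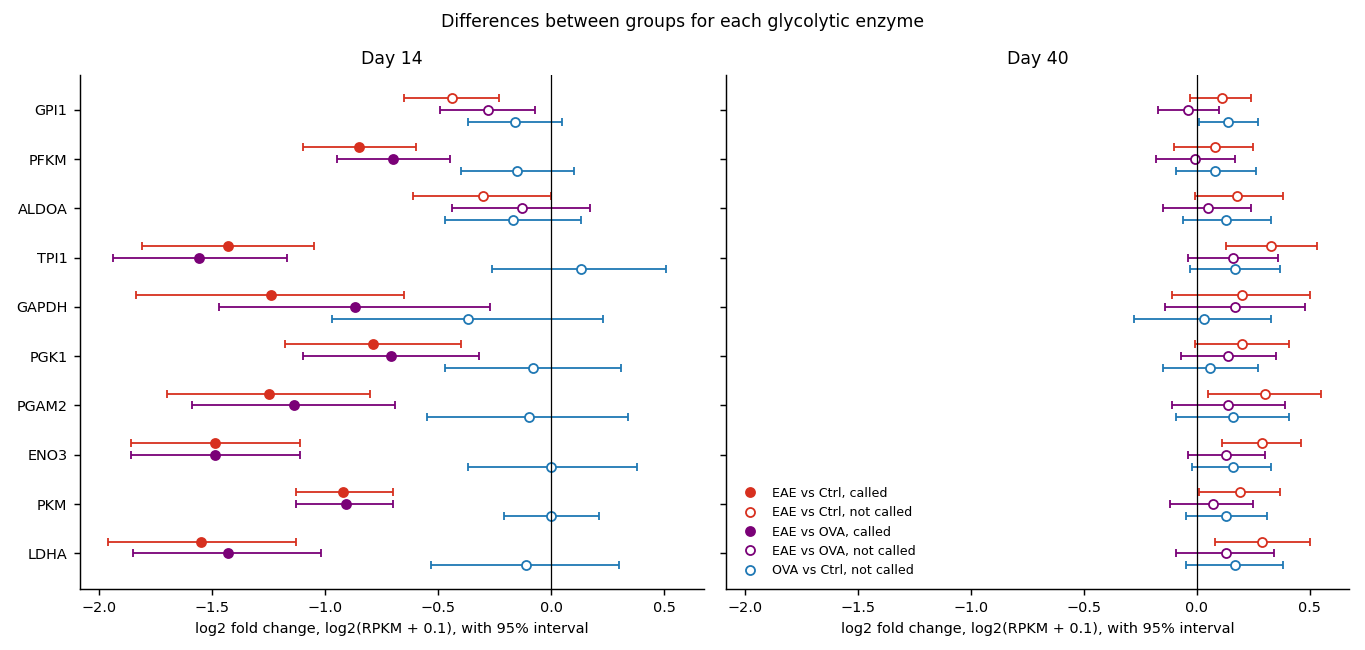
Log2 fold changes of RPKM + 0.1 (points) with 95% intervals for the 10 enzymes in pathway order, for 3 comparisons on day 14 (left) and day 40 (right), with filled points for called genes. On day 14 8 of 10 points are filled for EAE vs. Ctrl and for EAE vs. OVA, GPI1 and ALDOA are open, and no point is filled on day 40 or for OVA vs. Ctrl.

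The sum of the 10 enzymes was 24449 ± 3576 RPKM (SD, n = 5) in Ctrl, 22862 ± 2891 RPKM in OVA and 14160 ± 1588 RPKM in EAE mice on day 14. As a share of all RPKM of a mouse it was 4.27% to 5.14% in Ctrl, 4.11% to 4.65% in OVA and 2.58% to 3.31% in EAE mice, with no overlap of EAE with either group. Much of what remained in EAE mice was ALDOA. Set against ALDOA of the same mouse, LDHA stood at a ratio of 0.149 ± 0.0106 in Ctrl and 0.0653 ± 0.0194 in EAE mice. ENO3 stood at 0.446 ± 0.0489 and 0.202 ± 0.0583, while GPI1 stood at 0.0237 ± 0.00186 and 0.0215 ± 0.00159. These ratios were formed after the values had been seen and were not tested.

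**Figure D3:**
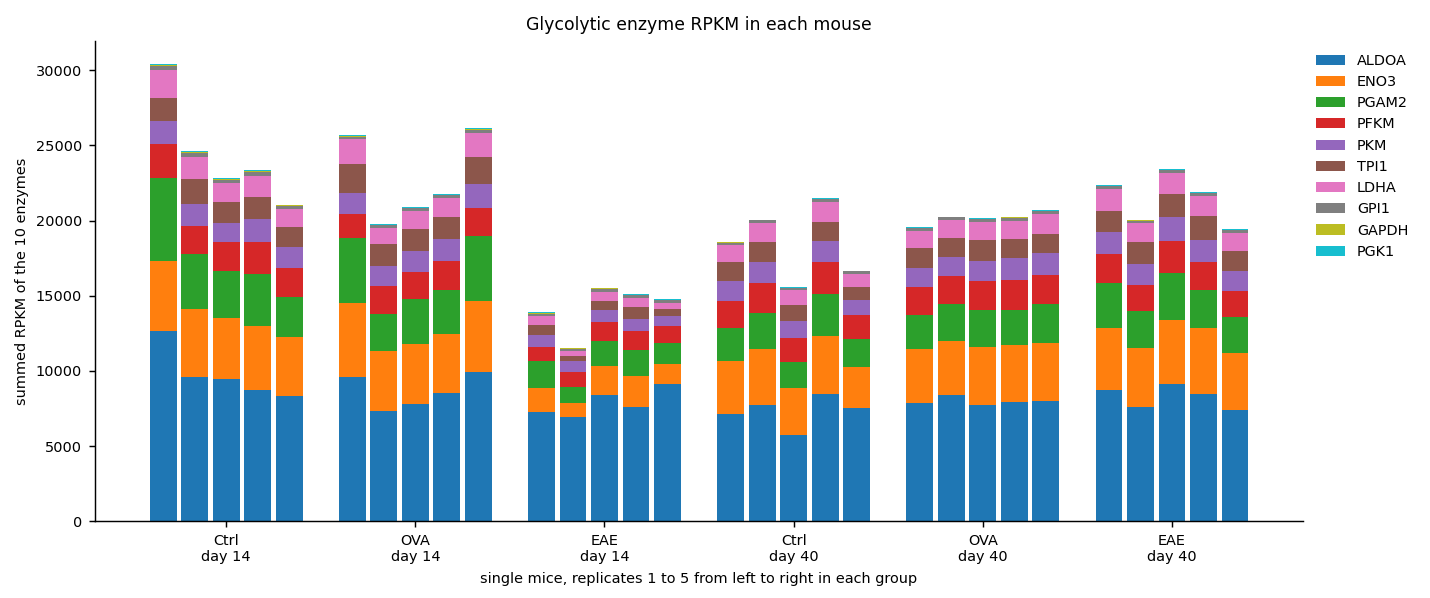
Summed RPKM of the 10 enzymes in each of the 30 mice (bars, stacked by gene, from 0), replicates 1 to 5 from left to right in each group. The EAE mice of day 14 reach 11531 to 15533 against at least 19769 in the Ctrl and OVA mice of that day, and ALDOA is the largest block in every bar.

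Immunization alone was compared by setting OVA against unimmunized mice. On day 14, 0 of 10 enzymes were called (0.142% of all genes tested), and 0 of 10 had an unadjusted p below 0.05 (9.69% of all genes) by limma. The log2 fold changes ran from -0.37 for GAPDH (interval -0.97 to 0.23) to 0.13 for TPI1 (interval -0.26 to 0.51), with a median of -0.11. ENO3 and PKM were at 0.00 and -0.00. GPI1 was the one gene of the 10 whose groups did not overlap (1.61% of all genes tested were lower without overlap), with OVA mice at 192 to 210 and Ctrl mice at 212 to 270 RPKM, and its log2 fold change was -0.16 (interval -0.37 to 0.05).

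On day 40 no enzyme was called in any of the 3 comparisons. In EAE against Ctrl, 0.460% of all genes tested were called (40 genes, but 1 without EAE mouse 3, 202 without Ctrl mouse 4 and 1 with the replicate number as a block), and 5 of the 10 enzymes had an unadjusted p below 0.05 by limma (27.9% of all genes). All 10 log2 fold changes were above 0, from 0.08 for PFKM to 0.33 for TPI1, with a median of 0.20 against -0.05 over all genes tested (0.12 against 0.00 with quantile normalization, 0.11 against -0.15 with a fixed sum). TPI1 stood at 1418, 1413, 1528, 1594 and 1345 RPKM in EAE mice and at 1257, 1326, 1099, 1299 and 873 RPKM in Ctrl mice, the only enzyme whose groups did not overlap (0.713% of all genes tested were higher without overlap). Its log2 fold change had an interval of 0.13 to 0.53 and an adjusted p of 0.0662 by limma. PGAM2 was at 0.30 (interval 0.05 to 0.55, adjusted p = 0.125). ENO3 was at 0.29 (interval 0.11 to 0.46, adjusted p = 0.0652), with 3777 to 4382 RPKM in EAE and 2779 to 3831 RPKM in Ctrl mice. LDHA was at 1420, 1256, 1431, 1350 and 1195 RPKM in EAE and at 857 to 1298 RPKM in Ctrl mice (log2 fold change 0.29, adjusted p = 0.0920).

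Against OVA mice of day 40, 0 of 10 enzymes were called and 0 of 10 had an unadjusted p below 0.05 by limma, where 0.209% and 17.4% of all genes did. These log2 fold changes ran from -0.04 for GPI1 to 0.17 for GAPDH. Between OVA and Ctrl mice of day 40, 0.00% of all genes were called and 3.12% had an unadjusted p below 0.05, as GPI1 did alone among the 10 (log2 fold change 0.14, interval 0.01 to 0.27, adjusted p = 0.999). The OVA mice had the smallest SD of the day 40 groups in 9 of the 10 enzymes, with TPI1 at 1257 to 1375 RPKM and ALDOA at 7712 to 8382 RPKM.

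Between the days, 6 enzymes were called higher in EAE mice on day 40 than on day 14 (8.36% of all genes tested): LDHA (log2 fold change 1.43, from 323 to 617 RPKM on day 14 to 1195 to 1431 RPKM on day 40), ENO3 (1.42), TPI1 (1.41), PKM (0.91), PGAM2 (0.82) and PFKM (0.78). GAPDH (0.13), GPI1 (0.11), ALDOA (0.08) and PGK1 (-0.04) were not called. The calls in the control groups were in the other direction. Ctrl mice had 3 enzymes called lower on day 40 (4.35% of all genes), GAPDH at -1.31, PGK1 at -1.03 and PGAM2 at -0.72, and PGAM2 was not called without Ctrl mouse 1 of day 14 (-0.57), with quantile normalization (-0.52) or with a fixed sum (-0.58). GPI1 (-0.43) and ALDOA (-0.41) also had an adjusted p below 0.05 in Ctrl mice, within the fold limit. OVA mice had 2 called lower (1.71% of all genes), PGK1 at -0.89 and GAPDH at -0.92, and GAPDH was not called without OVA mouse 5 of day 14 (-0.74). GAPDH and PGK1 were thus at 19.2 to 35.7 and 25.5 to 35.8 RPKM over all mice of day 40, beside 15.3 to 32.2 and 26.5 to 39.4 RPKM in the EAE mice of day 14. The part of library preparation in these differences between days was not tested.

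The change of the EAE effect from day 14 to day 40 was tested as an interaction over all 30 mice, in which a shift between days that is common to the groups cancels. For EAE vs. Ctrl all 10 enzymes had an adjusted p below 0.05 in the direction of a rise (16.5% of all genes tested), from 0.48 for ALDOA (adjusted p = 0.0186 by limma) and 0.54 for GPI1 to 1.77 for ENO3 and 1.84 for LDHA (interval 1.38 to 2.30, adjusted p = 5.92e-07). ALDOA lost this call with no filter on low values (0.48, the same value with more genes tested), with quantile normalization (0.07) and with values rescaled to a fixed sum (0.23). For EAE vs. OVA 8 of 10 did (11.1% of all genes), from 0.69 for PFKM, a call lost with quantile normalization (0.42), to 1.72 for TPI1. GPI1 (0.24, adjusted p = 0.0845, but called with median-of-ratios scaling or without EAE mouse 3 of day 14) and ALDOA (0.18, adjusted p = 0.411) did not. A rise of the effect is not always a rise in EAE mice. Between the days GAPDH changed by 0.13 in EAE, -1.31 in Ctrl and -0.92 in OVA mice, and PGK1 by -0.04, -1.03 and -0.89. GPI1 changed by 0.11 in EAE and -0.43 in Ctrl mice, and ALDOA by 0.08 and -0.41.

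Isozymes of the same step were then compared, as the log2 ratio of the muscle isozyme to the sum of the others, with a two-sided exact permutation test of 5 against 5 mice, whose smallest possible p is 0.00794. The muscle isozyme prevailed throughout: PFKM exceeded PFKL and PFKP together by a factor of 187 ± 20.1 in Ctrl and 141 ± 20.2 in EAE mice on day 14. The log2 ratio of ENO3 to ENO1 and ENO2 was 8.11 ± 0.29 in Ctrl, 8.36 ± 0.18 in OVA and 7.36 ± 0.36 in EAE mice (SD, n = 5). It was lower in EAE by 1.01 against OVA mice, with no overlap (exact p = 0.00794). Against Ctrl mice the difference was -0.75, and the groups overlapped (exact p = 0.0159). The log2 ratio of PGAM2 to PGAM1 was 9.60 ± 0.39 in Ctrl and 8.78 ± 0.14 in EAE mice, with no overlap (exact p = 0.00794). OVA mice, at 9.33 ± 0.38, overlapped the EAE mice in this ratio (difference -0.54, exact p = 0.0159). For PFKM the exact p was 0.0159 against Ctrl and 0.0238 against OVA. LDHA against LDHB and LDHC gave 3.34 ± 0.31 in Ctrl and 2.99 ± 0.22 in EAE mice (exact p = 0.0635). Over the 24 ratio tests (4 steps, 6 comparisons) 6 had an unadjusted p below 0.05, all on day 14 and all between EAE and another group, and none did after adjustment (lowest adjusted p = 0.0762).

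**Figure D4:**
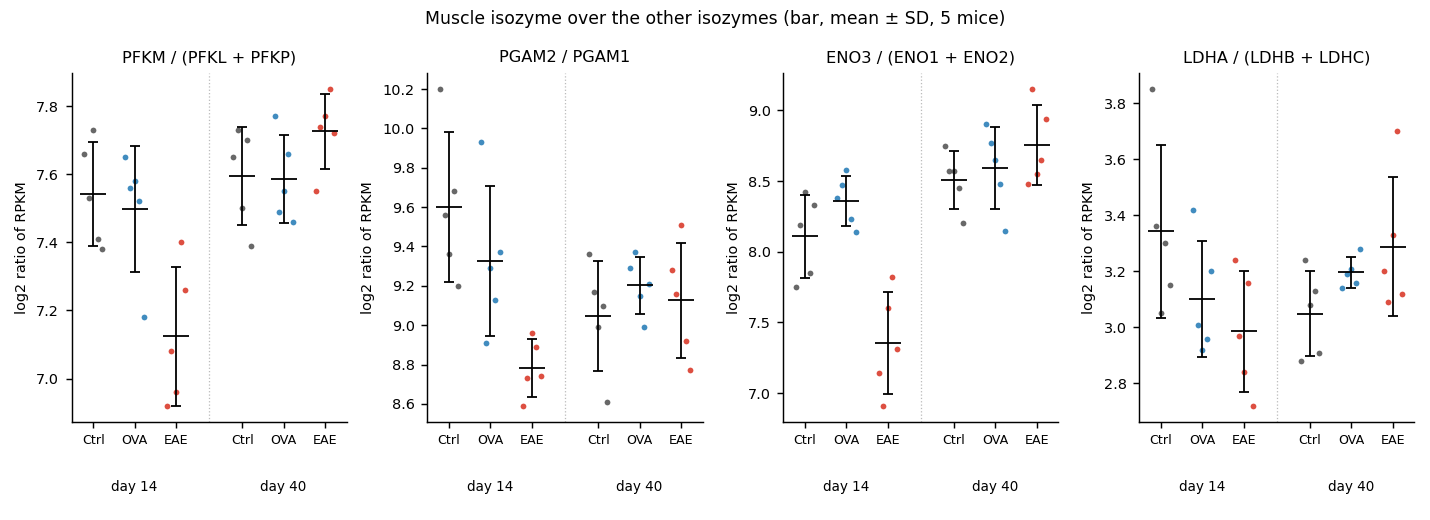
Log2 ratio of the muscle isozyme to the summed other isozymes of 4 steps in single mice (points), with the mean and SD of 5 mice (bars); each panel has its own axis, which does not start at 0. The ratios of all 4 steps are lowest on average in EAE mice of day 14, that of LDHA at 2.99 beside 3.05 in Ctrl mice of day 40. On day 40 the groups overlap in every panel.

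Other genes of the pathway were read from lists of isozymes, control and bypass enzymes, entry and exit proteins, and transcription factors. Of the 17 other isozymes, 8 were tested in EAE vs. Ctrl on day 14, of which 4 were called lower and 0 higher (11.8% and 14.6% of all genes). LDHB, the heart-type lactate dehydrogenase subunit, fell from 142 ± 11.6 to 63.7 ± 15.7 RPKM (log2 fold change -1.19, adjusted p = 2.13e-05 by limma), and BPGM, ENO1 and PFKP fell as well. HK2, the muscle hexokinase that traps glucose, was at 73.8 ± 11.5 and 91.0 ± 14.4 RPKM (log2 fold change 0.30, adjusted p = 0.104). Against OVA mice of day 14, 2 of 8 tested other isozymes were called lower (9.28% of all genes).

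Of 10 control and bypass enzymes 8 were tested and 4 were called lower (11.8% of all genes). GPD1, which feeds glycolytic NADH towards the glycerol phosphate shuttle, fell from 257 ± 19.0 to 97.0 ± 38.1 RPKM (log2 fold change -1.49, adjusted p = 3.64e-05 by limma). PFKFB1, of the family that sets the level of the phosphofructokinase activator fructose-2,6-bisphosphate, fell from 27.4 ± 4.21 to 9.96 ± 2.35 RPKM (-1.47, adjusted p = 3.15e-06). Other members of that family did not fall alike. PFKFB3 was at 26.5 ± 8.10 and 31.6 ± 10.7 RPKM and PFKFB4 at 10.2 ± 1.56 and 14.7 ± 3.65 RPKM, neither called against Ctrl, and PFKFB2 did not pass the filter. FBP2, the muscle fructose bisphosphatase, fell by 1.13 on the log2 scale, and TIGAR by 0.68. Against OVA mice of day 14, 3 of 8 tested control and bypass enzymes were called lower and 1 higher. Among all 8674 genes tested, 805 were called lower and 957 higher in that comparison. PFKFB4 was at 8.85 ± 1.63 RPKM in OVA mice. Of 18 entry and exit genes 15 were tested. Against OVA mice 4 were called lower (9.28% of all genes), with a median log2 fold change of -0.43. Against Ctrl mice 2 were called lower, a share close to the 11.8% of all genes. These were SLC16A3, the lactate exporter of fast fibres, from 133 ± 13.9 to 58.4 ± 14.7 RPKM (-1.22, adjusted p = 1.59e-05), and the mitochondrial pyruvate carrier gene MPC2 (-0.79). The insulin-responsive glucose transporter SLC2A4 (-0.45, adjusted p = 0.00856, within the fold limit) and PDK4, which shuts off pyruvate oxidation (0.39, adjusted p = 0.470), were not called against Ctrl.

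All 13 listed transcriptional regulators were tested, with 4 called higher and 1 lower (14.6% and 11.8% of all genes). MYOD1, a factor of the myogenic programme, rose from 16.7 ± 3.30 to 67.9 ± 28.2 RPKM (log2 fold change 1.90, adjusted p = 7.70e-05 by limma), with EAE mice between 24.3 and 95.9 RPKM. MYC (1.19), SIX4 (0.93) and ARNT (0.70), the partner of hypoxia-inducible factors, rose as well. HIF1A was not called (0.48, adjusted p = 0.0733). ESRRA, a nuclear receptor of energy metabolism, fell from 68.1 ± 8.42 to 37.2 ± 5.65 RPKM (-0.88, adjusted p = 0.000112). On day 40 no gene of these 4 lists was called in EAE vs. Ctrl, where 0.460% of all genes tested were.

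**Figure D5:**
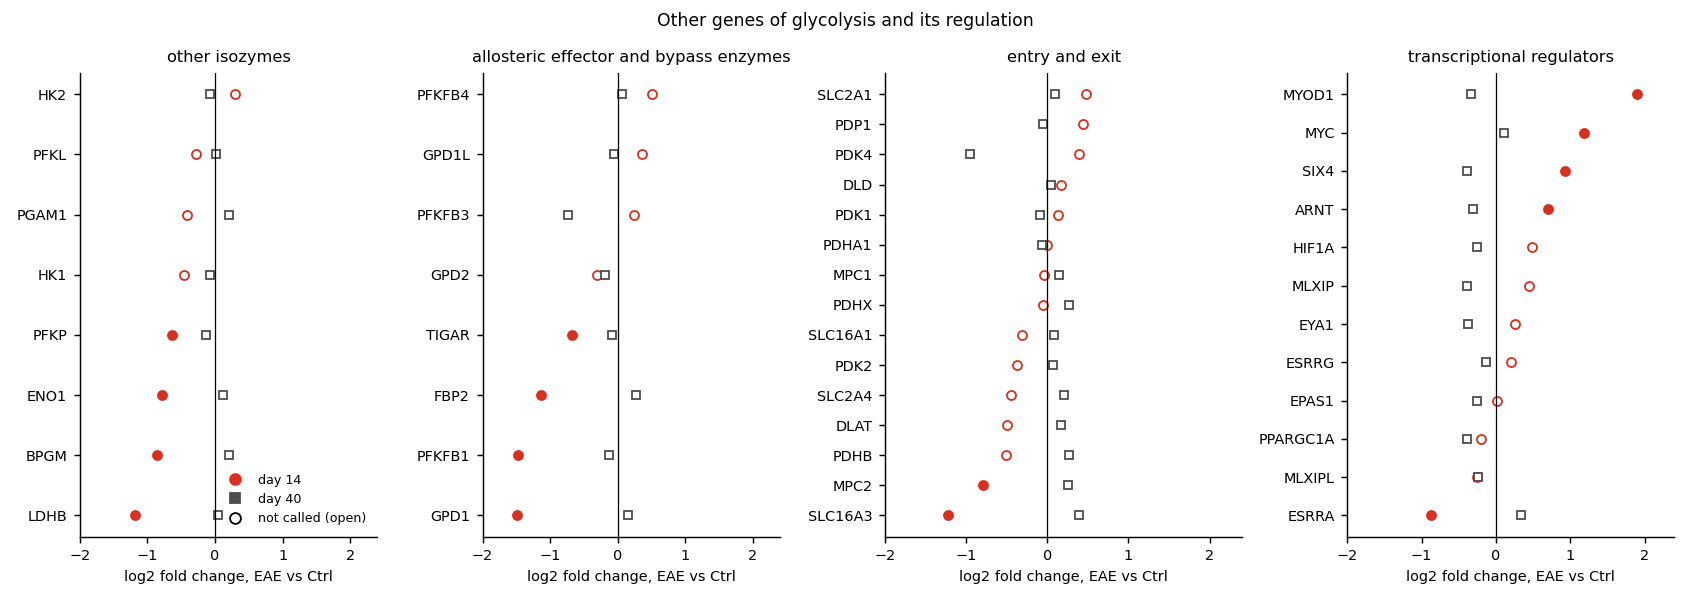
Log2 fold changes of EAE vs. Ctrl for tested genes of 4 lists of other pathway genes (1 regulator is not shown), on day 14 (red circles) and day 40 (grey squares), filled where called. On day 14 GPD1, PFKFB1, SLC16A3 and LDHB lie lowest and MYOD1 highest, and every day 40 marker is open.

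The 4 genes whose pattern over the 30 mice lay nearest to the mean of the 10 enzymes were ESRRA, UQCRC1, SDHB and AK1, with root mean square differences of 0.104, 0.108, 0.113 and 0.120 on the log2 scale, against a median of 0.469 over 8434 candidates. Being picked as the nearest, they had to lie below that median. The 10 enzymes themselves lay farther from their mean, from 0.144 for PGAM2 to 0.410 for GAPDH. UQCRC1 and SDHB belong to the respiratory chain and AK1 interconverts adenine nucleotides. All points share their libraries, and this likeness is a description. UQCRC1 stood at 731 ± 75.7 RPKM in Ctrl, 777 ± 100 in OVA and 402 ± 40.7 in EAE mice on day 14, and at 544 ± 71.9, 575 ± 14.7 and 642 ± 74.1 RPKM on day 40.

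Markers of fibres and of other cell types moved with the EAE group on day 14, and their part in the enzyme differences was not tested. The counts below stand beside 11.8% of all genes called lower and 14.6% called higher in EAE vs. Ctrl. In OVA vs. Ctrl 0.142% of all genes were called. Of 12 fast fibre markers 2 were called lower (PVALB at -1.47 and TNNC2 at -0.93), with a median of -0.32 and MYH4 at -0.00, and their summed level was 60108 to 78866 RPKM in EAE and 86648 to 128716 RPKM in Ctrl mice. Of 10 slow fibre markers 4 were called lower, with sums of 1289 to 2112 and 1988 to 3223 RPKM. Of 8 fibroblast markers 7 were called lower (348 to 568 against 1033 to 2130 RPKM), of 8 macrophage markers 4 (134 to 298 against 277 to 417 RPKM), of 8 endothelial markers 2 (89.5 to 133 against 114 to 151 RPKM), and of 5 tested tendon markers 4, with 1 higher (280 to 435 against 498 to 716 RPKM). All 4 tested erythrocyte markers were called lower (26.5 to 189 against 189 to 684 RPKM), as was 1 of 5 tested adipocyte markers (306 to 485 against 457 to 686 RPKM). Neutrophil markers were called higher in 4 of 4 tested, both in EAE (median 3.89) and in OVA mice (median 4.77) against Ctrl, where LTF and LY6G were below 0.1 RPKM. Their sums were 201 to 392 RPKM in EAE, 63.8 to 227 in OVA and 3.80 to 9.62 RPKM in Ctrl mice. Between EAE and OVA mice S100A8 was called higher in EAE (2.31), and S100A9 (-0.96), NGP (-0.86) and RETNLG (-1.05) were not called. Of 5 tested Schwann cell markers 0 were called (74.7 to 114 against 107 to 117 RPKM), and no lymphocyte marker reached the filter in this comparison (2.50 to 4.77 against 3.51 to 6.14 RPKM).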

How the data were processed

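RNA-Seq was performed on poly(A) RNA of EDL muscle from 30 mice, 5 in each of 6 groups. Per the labels and the study's methods, the authors used Subread for alignment (mm10), counted reads per RefSeq gene model by featureCounts and derived RPKM. The deposited table of 21073 genes holds log2(RPKM + 1), with 0.0001 for genes without a read (25.8% of values). The labels do not name this scale: read as log2, 77.2% of 7960 low values were whole multiples of a read within 0.05 reads, against 65.1% of 7985 read as natural logs and 36.2% of 8035 read as RPKM. Over GENCODE exon lengths, not those of the RefSeq models used for counting, the converted values came to 147% to 157% of the reads that RPKM is scaled to. The cause was not tested. Values were converted to RPKM.

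Groups came from the sample titles. Genes above 3 RPKM on average in a compared group were tested across all genes with limma 3.58.1 (R 4.3.3) on log2(RPKM + 0.1) with a mean-variance trend, fitted on 15 mice within a day and on 30 mice between days. Other pseudocounts, filters, scalings, models and leaving out single mice were tried. The test was checked on simulated data. Named genes were the members, fixed pathway and marker lists, and the 5 genes of nearest pattern; the isozymes of 1 step and single genes of these lists are not reported here. Members and lists were chosen with earlier results of these data known. Copies were searched with blastn 2.17.0 in GENCODE transcripts, and promoters were matched for all 10 genes in RefSeq (GRCm38.p6).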

Additional observations from a re-analysis of the deposited data

Results flagged for a closer look

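In 4 of the 60 sets of 5 mice (10 enzymes in 6 groups), 1 mouse stood apart from the others by Dixon's criterion at 95%, where chance gives about 1 in 20. These were GPI1 at 270 RPKM and ALDOA at 12646 RPKM in the same unimmunized mouse of day 14 (replicate 1, the highest of its group), PFKM at 1547 RPKM in OVA mouse 1 of day 14 (the lowest) and PGK1 at 35.8 RPKM in unimmunized mouse 4 of day 40 (the highest).

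The EAE effect differed between day 14 and day 40 in 18 of 20 interaction tests by limma (adjusted p below 0.05). Against Ctrl the log2 change of the effect was 0.54 for GPI1, 0.93 for PFKM, 0.48 for ALDOA, 1.76 for TPI1, 1.44 for GAPDH, 0.99 for PGK1, 1.55 for PGAM2, 1.77 for ENO3, 1.11 for PKM and 1.84 for LDHA. Against OVA it was 0.69 for PFKM, 1.72 for TPI1, 1.04 for GAPDH, 0.85 for PGK1, 1.28 for PGAM2, 1.62 for ENO3, 0.98 for PKM and 1.56 for LDHA. Both sets use the same EAE mice, and the day 14 and day 40 mice are different animals. GAPDH, PGK1, GPI1 and ALDOA were not called between the days in EAE mice. Their change against Ctrl lay mostly in lower levels of Ctrl mice on day 40.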

How the results depend on the processing

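The count of 8 enzymes called lower in EAE vs. Ctrl on day 14 was 8 or 9 under every alternative run that kept all mice, and in EAE vs. OVA it was 6 to 9. Of 90 such recounts over all comparisons 89 stayed within 1.5 times. The exception was Ctrl mice between days, with 5 rather than 3 called where no fold limit was set. Leaving out single mice moved 1 of 130 counts by over 1.5 times, that of OVA mice between days (1 to 2), and gave 7 to 8 for EAE vs. OVA on day 14, 2 to 3 for Ctrl mice between days and 8 to 9 for the EAE vs. OVA interaction. No value of a called enzyme changed its sign. The rescaling to a fixed sum of RPKM was chosen after seeing the data.

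Whether replicate numbers pair the mice was not decided, as pairs of unequal number were not computed for reference. Over 30 pairs of equal number within a day the correlation of deviations was -0.73 to 0.70 (median -0.07). It was above 0.1 in 8, among them the 3 pairs of replicate 1 on day 14 (0.51 to 0.70). With the replicate number as a block, the counts were 8, 8 and 0 on day 14 (EAE vs. Ctrl, EAE vs. OVA, OVA vs. Ctrl), 0 in each on day 40, 6, 2 and 3 between days (EAE, OVA, Ctrl) and 10 and 8 for the interactions, and the block changed no count.

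For 5 isozyme ratios past no threshold with all mice, the exact permutation p fell below 0.05 without 1 mouse. Their log2 differences ranged, as single mice were left out, for PFKM from 0.08 to 0.18 (EAE vs. Ctrl, day 40) and from 0.11 to 0.19 (EAE vs. OVA, day 40), and for LDHA from -0.43 to -0.23 (EAE vs. Ctrl, day 14), 0.14 to 0.29 (EAE vs. Ctrl, day 40) and 0.11 to 0.20 (OVA vs. Ctrl, day 40). The cause was not tested. With 5 mice a group the intervals in the text limit what could be seen, and the RPKM of GAPDH and PGK1 rest on fewer reads than those of the other enzymes.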
